A study of Rattus norvegicus with 18 samples.

Results

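The 8 genes described here are the rat major histocompatibility complex (MHC) class II genes of the RT1 region and the invariant chain: RT1-Ba, RT1-Bb, RT1-Da, RT1-Db1, RT1-DMa, RT1-DMb, RT1-DOb and Cd74. They were taken by symbol from a table of raw counts per gene, ignoring case. Each symbol matched 1 row, so 8 of 8 were found among 34873 rows. The table came from RNA-seq of 18 libraries of rat brain in 3 groups of 6, with 15.1 M to 20.3 M counts (M, 1000000) a library. The first group, NC, was labelled wild type with no treatment. The CO group was labelled wild type and had inhaled carbon monoxide, 1000 ppm for 40 minutes and then 3000 ppm for 20 minutes, with carboxyhaemoglobin above 60% as the sign of a successful model. The CLCF1 group had inhaled carbon monoxide in the same way and was labelled as a knock-down of CLCF1, a cytokine of the interleukin-6 family. The design text speaks of shRNA lentivirus tested in bone marrow-derived macrophages, and of liposome depletion followed by macrophage reconstitution. It does not say which groups received the depletion, the cells or a control vector, so CLCF1 and CO may differ by more than the gene. Strain, age, brain region and the time between exposure and sampling were not given in the sources used here.

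MHC class II molecules are pairs of an alpha and a beta chain that carry peptides from engulfed material to the surface of antigen-presenting cells, where CD4+ T cells read them. In the rat, RT1-B (chains RT1-Ba and RT1-Bb) and RT1-D (chains RT1-Da and RT1-Db1) are the classical presenting molecules. RT1-DM (RT1-DMa and RT1-DMb) exchanges peptides in the endosome, and RT1-DO, of which RT1-DOb is the beta chain, restrains DM. Cd74, the invariant chain, fills the groove of new class II molecules and guides them to the endosome. In healthy brain tissue these genes are low, and they are known for their induction in microglia and for their presence in macrophages at the borders of the brain and in dendritic cells.

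The 7 RT1 genes lay on chromosome 20 and Cd74 on chromosome 18 of the deposited table, which names no genome build. RT1-DOb spanned 4020317 to 4026346 on the plus strand, RT1-Bb 4039413 to 4049711 (plus), RT1-Ba 4066132 to 4070721 (minus), RT1-Db1 4087618 to 4097190 (plus) and RT1-Da 4127644 to 4132616 (minus). RT1-DMb spanned 5227045 to 5234290 (minus) and RT1-DMa 5240975 to 5244386 (minus). Cd74 spanned 56071478 to 56080849 (plus). No member overlapped another row of the table.

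The shared regulation of class II genes is written in their promoters, where the X box binds the RFX complex and the Y box binds NF-Y, and the coactivator CIITA joins both. RefSeq promoters (build GRCr8, 250 bases before to 50 bases after the start) were matched for 7 of the 8 genes; RT1-DMb had no entry. The windows are shown for the 6 genes that hold a Y box core, 5 of which also hold the X letters, because the boxes are shared while the calls in the counts below differ between the genes. Coordinates and strands here are those of GRCr8. For RT1-Ba, RT1-Bb, RT1-Da, RT1-Db1 and RT1-DOb the strand is opposite to that in the deposited table, and for RT1-DMa it is the same. Capitals mark the letters GATTGG (Y box core) and, where found, ACNGATG (letters of the X box).
RT1-Ba, chr20:4576973-4577026, plus: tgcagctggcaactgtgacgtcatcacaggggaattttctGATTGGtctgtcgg
RT1-Bb, chr20:4604167-4604219, minus: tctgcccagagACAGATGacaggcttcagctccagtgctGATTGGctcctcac
RT1-Da, chr20:4515325-4515378, plus: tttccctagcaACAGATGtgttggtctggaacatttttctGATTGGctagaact
RT1-Db1, chr20:4560230-4560282, minus: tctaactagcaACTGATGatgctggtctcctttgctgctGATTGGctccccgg
RT1-DMa, chr20:4712387-4712440, minus: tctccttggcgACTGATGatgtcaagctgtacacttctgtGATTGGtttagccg
RT1-DOb, chr20:4627594-4627644, minus: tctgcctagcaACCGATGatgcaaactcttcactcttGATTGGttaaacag
The letters were chosen after these sequences had been seen and were searched on both strands; the 2 motifs do not overlap. GATTGG stood in 6 of the 7 promoters, against 4956 of 33469 promoters in the table (14.8%). ACNGATG stood in 5 of 7, against 3402 of 33469 (10.2%). The X letters followed by the Y core on the gene's own strand within 40 bases were found in 21 of 33469 promoters (0.0627%). Of these 21, 5 belonged to members and 1 to RT1-Db2, the copy of RT1-Db1. The 2 boxes stood 19 to 22 bases apart in the 5 members. The promoter of Cd74 held neither set of letters in this window, and that of RT1-Ba lacked the X letters as spelled here.

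**Figure D1:**
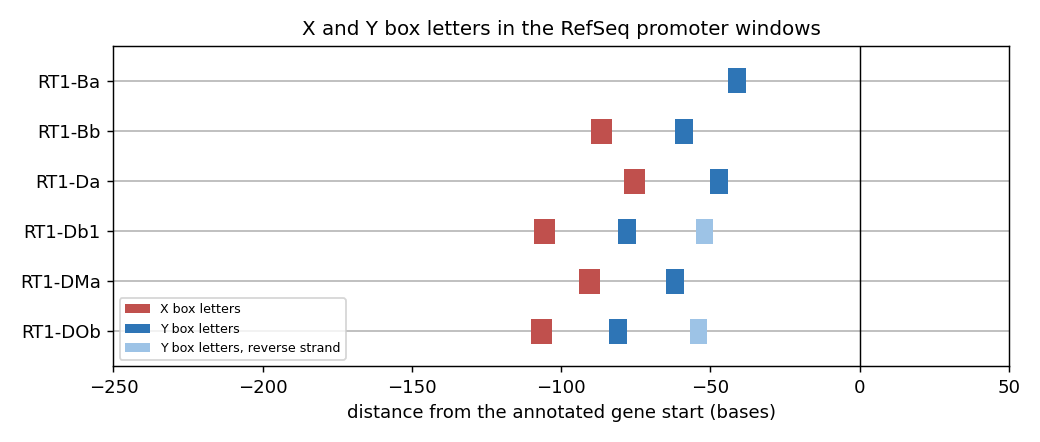
Positions of the X box letters and the Y box core in the promoters of the 6 genes that hold a Y box core, as distance in bases from the RefSeq gene start (x axis), with 1 row a gene. Cd74, which was matched but held neither set of letters, has no row. In the 5 genes with both, the X letters begin 79 to 110 bases and the Y core 50 to 84 bases before the start.

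Some facts of the libraries touch every value that follows. Clcf1 itself bears on the knock-down label: its counts were 1 to 7 in the NC libraries, 80 to 118 in CO and 0 to 3 in CLCF1. Clcf1 was lower in CLCF1 than in CO (log2 fold change -6.67 ± 0.51 SE, adjusted p = 9e-07, edgeR). Against NC it did not pass (-1.49 ± 0.60 SE, adjusted p = 0.126, edgeR). A level below that of untreated brain was therefore not resolved. Libraries 3 to 6 of each group stood apart: wherever libraries 1 and 2 of a group both held 0 for a gene, libraries 3 to 6 held 0 as well (0 exceptions in 42660 cases). In the opposite direction, genes with no count in 2 of libraries 3 to 6 had a count in library 1 or 2 in at least 2.87% of cases. Values from libraries 1 and 2 alone are therefore given beside the fold changes of the members and of the other tested genes named below. No label states that each library was a separate animal, so the p-values measure the spread between libraries, which may be technical. Every SE, SD, adjusted p and share of groups not overlapping over all 6 libraries also takes these as independent of each other. The shared zeros put that in question, so the SE and adjusted p may be too small.

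RT1 genes differ between rat strains in copy and sequence, and reads of similar copies can be counted to the wrong one or to none. The labels give no strain, and the counting of shared reads was not given in the sources used here, so an RT1 count of 0 may be a missing or poorly matching copy as well as a silent gene, and these cannot be told apart. The nearest copy by name, RT1-Db2, was at 0 in all 18 libraries, so adding it to RT1-Db1 changed no value. Of 37 RT1 rows with any count, 5 were at 0 in every library of at least one group and present in every library of another (13.5%), against 871 of 22634 genes (3.85%). RT1-Ba was 1 of these 5. The others were RT1-CE16 (0 counts in NC, 1212 in CO, 2937 in CLCF1), RT1-CE10 (0, 199 and 222), RT1-T24-1 (17, 23 and 0) and RT1-M1-4 (0, 24 and 7). Of 13 tested class I genes and neighbours, 2 passed higher in CLCF1 than in CO and 2 lower. Over all genes tested, 8.63% passed higher and 8.34% lower. The 2 lower were RT1-CE5 (454, 188 and 3 counts) and RT1-A2 (2807, 1585 and 564). Their log2 fold changes were -5.88 ± 0.72 SE and -1.72 ± 0.37 SE (adjusted p = 0.000156 and 0.00419, edgeR). In libraries 1 and 2 these were -5.64 and -1.40. Whether the groups carry the same RT1 haplotype could not be read from the labels, and each RT1 difference below is given with that limit.

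In NC brain the class II genes spanned a wide range of levels. Per kilobase of gene length (CPM, counts scaled to a library of 1000000, divided by the table's length in kb; mean ± SD, n = 6), Cd74 was highest at 19.5 ± 6.43. RT1-Da followed at 4.05 ± 1.11, then RT1-DMb at 1.41 ± 2.01, RT1-Db1 at 0.670 ± 0.403 and RT1-DMa at 0.577 ± 0.400. RT1-Bb (0.156 ± 0.139) and RT1-DOb (0.0772 ± 0.0624) were barely detected, and RT1-Ba was at 0. Cd74 was above RT1-Da in every NC library, 8.56 at its lowest against 5.68 for the highest RT1-Da library; from RT1-Da down to RT1-DOb, neighbours in this order overlapped. In CLCF1 the order per kb was Cd74 (42.2 ± 8.99), RT1-Da (9.92 ± 2.83), RT1-Ba (3.52 ± 1.90), RT1-Bb (3.04 ± 1.52), RT1-DMb (2.00 ± 1.04), RT1-Db1 (1.84 ± 0.856), RT1-DOb (0.997 ± 0.442) and RT1-DMa (0.448 ± 0.292). By their means, RT1-Ba and RT1-Bb thus moved from the bottom of the order to the places behind RT1-Da. Their ranges (2.14 to 6.83 and 1.38 to 5.59) overlapped each other and those of RT1-DMb (0.713 to 3.57) and RT1-Db1 (0.910 to 2.99). RT1-Ba also overlapped RT1-Da (6.35 to 13.2), so these places were not resolved. Levels of different genes are compared per kb; the values of single genes below are CPM.

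**Figure D2:**
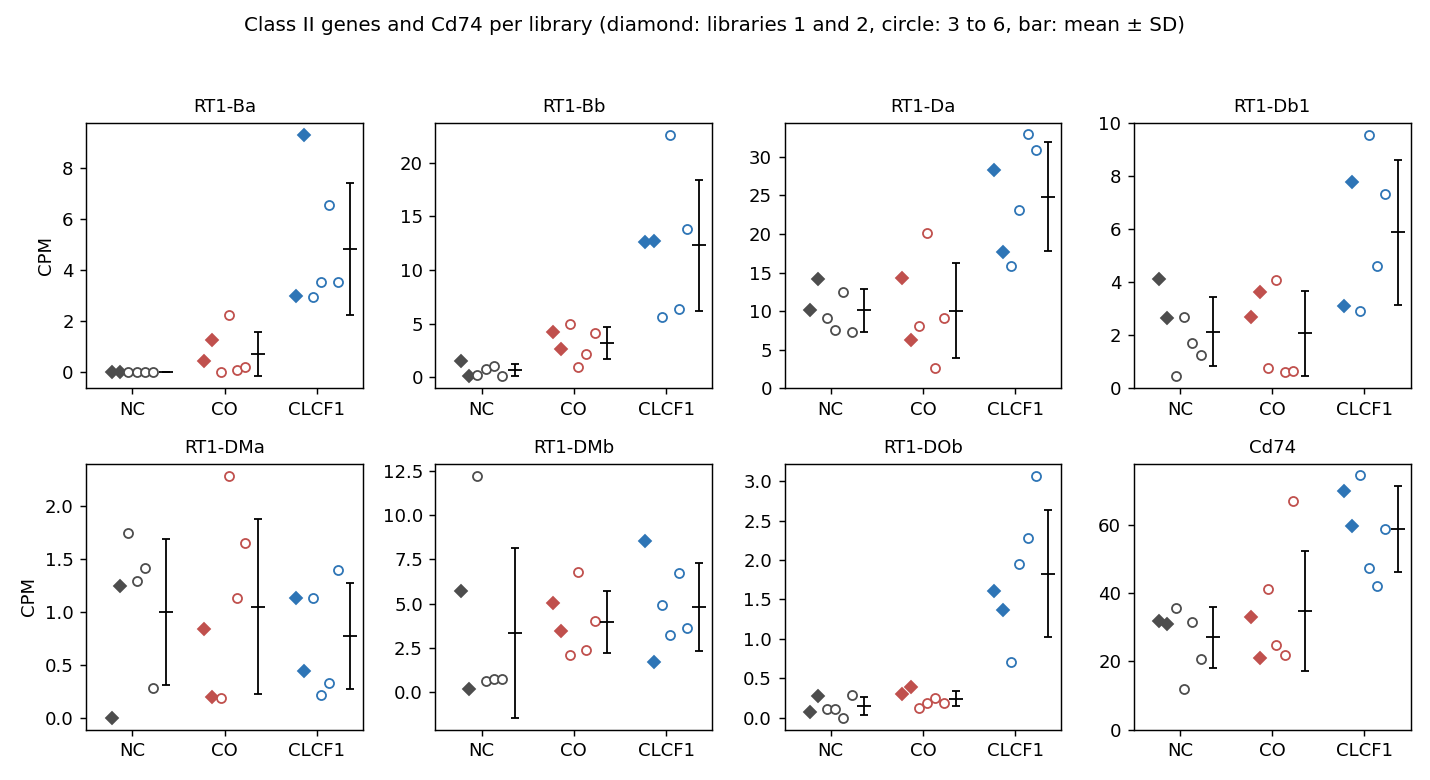
CPM of the 8 genes in each of the 18 libraries (y axis, linear, a scale for each gene), by group on the x axis, with the mean and SD (n = 6). Libraries 1 and 2 are marked apart from libraries 3 to 6. RT1-Ba, RT1-Bb and RT1-DOb in CLCF1 lie above all CO libraries, while RT1-DMa and RT1-DMb overlap across the groups.

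CO brain held more RNA of both RT1-B chains than NC brain did, and the other 6 genes did not pass. RT1-Bb was at 0.112, 0.505 and 1.46 CPM (lowest, median and highest library) in NC and at 0.953, 3.39 and 4.92 in CO. The ranges overlapped only through CO library 4, the lowest of its group, which lay below the 2 highest NC libraries. RT1-Bb rose 5.01-fold in mean CPM (log2 fold change 2.35 ± 0.55 SE, adjusted p = 0.0100, quasi-likelihood test of edgeR, Benjamini-Hochberg adjusted over all genes tested, as for all adjusted p below). In libraries 1 and 2 alone the log2 fold change was 2.14. Because the tissue was bulk brain, a change in the number of expressing cells and a change in RNA per cell cannot be told apart here or in any later comparison.

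RT1-Ba was at 0 in all 6 NC libraries, which allows up to 0.0278 CPM over the group (3 counts, counting error only), and at 0, 0.305 and 2.22 CPM in CO. This limit takes the 6 NC libraries as separate, although libraries 3 to 6 held 0 wherever libraries 1 and 2 both did. It may therefore be too low. The 65 CO counts of RT1-Ba were uneven: 35 came from library 4 and 19 from library 2, and library 3 had none. RT1-Ba was at least 24.5-fold higher in CO (adjusted p = 0.0112), a bound that fell to 13.5-fold without CO library 4 and was 9.86-fold in libraries 1 and 2 alone. The fitted log2 fold change against a group at 0 depends on the prior count and is not used as a size. Without CLCF1 in the filter, RT1-Ba and RT1-DOb had too few counts to be tested in CO against NC.

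The other classical pair did not pass. RT1-Da was at 7.25, 9.66 and 14.2 CPM in NC and at 2.65, 8.61 and 20.1 in CO (log2 fold change -0.01 ± 0.34, adjusted p = 0.987; -0.26 in libraries 1 and 2). RT1-Db1 gave -0.05 ± 0.53 (adjusted p = 0.964; -0.11 in libraries 1 and 2). Cd74 gave 0.36 ± 0.28 (adjusted p = 0.418), and its direction turned to -0.23 in libraries 1 and 2. RT1-DOb gave 0.70 ± 0.55 (adjusted p = 0.420), RT1-DMa 0.06 ± 0.69 (0.963) and RT1-DMb 0.24 ± 0.71 (0.854). These values were 0.90, -0.31 and 0.52 in libraries 1 and 2, and RT1-DMb was 1.32 without NC library 3 (adjusted p = 0.193). In all, 2 of 8 members passed, both higher. Of all 16581 genes tested, 12.7% passed, 6.32% higher and 6.40% lower. RT1-Ba could be tested only through its CLCF1 counts; among the 6 members that pass the filter without that group, 1 passed. For 0 of 8 members did the CO group lie wholly above NC over all 6 libraries, against 3.15% of genes.

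CLCF1 brain held more RNA of the RT1-B chains, RT1-Da and RT1-DOb than CO brain did. RT1-DOb, the beta chain of the DM regulator, was at 0.126, 0.221 and 0.387 CPM in CO and at 0.700, 1.78 and 3.07 in CLCF1. The groups did not overlap. RT1-DOb rose 7.59-fold in mean CPM (log2 fold change 2.89 ± 0.47, adjusted p = 0.000869), with 23 counts in CO against 203 in CLCF1. RT1-DOb passed the filter on low counts only through its CLCF1 counts, so a difference was built into its entry to the test. In libraries 1 and 2 alone the log2 fold change was 2.09.

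Both RT1-B chains moved further up. RT1-Ba was at 2.91, 3.51 and 9.29 CPM in CLCF1, and every CLCF1 library exceeded every CO library. It rose 6.98-fold in mean CPM (log2 fold change 2.80 ± 0.74, adjusted p = 0.0204; 2.87 in libraries 1 and 2), and the log2 fold change was 3.62 without CO library 4. RT1-Ba, like RT1-DOb, entered the test only through its CLCF1 counts. RT1-Bb was at 5.60, 12.7 and 22.6 CPM in CLCF1, again above all CO libraries, and rose 3.88-fold (1.95 ± 0.49, adjusted p = 0.0119; 1.86 in libraries 1 and 2). The 1369 RT1-Bb counts in CLCF1 compared with 304 in CO and 64 in NC.

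In the RT1-D pair, RT1-Da was at 15.9, 25.7 and 32.9 CPM in CLCF1. The groups overlapped in CO library 4 alone, which at 20.1 CPM stood above the 2 lowest CLCF1 libraries. RT1-Da rose 2.46-fold (log2 fold change 1.30 ± 0.34, adjusted p = 0.0147; 1.16 in libraries 1 and 2). Its partner RT1-Db1 was at 0.630, 1.72 and 4.07 CPM in CO and at 2.91, 5.96 and 9.55 in CLCF1, with a log2 fold change of 1.51 ± 0.53 that missed the threshold (adjusted p = 0.0557; 0.77 in libraries 1 and 2). It passed with DESeq2 (adjusted p = 0.0199) and with limma-voom (0.0390), and also without NC library 3 (0.0421), CO library 2 (0.0430), CO library 4 (0.0369), CLCF1 library 1 (0.0472) or CLCF1 library 3 (0.0496).

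Cd74 was at 20.9, 28.9 and 66.9 CPM in CO and at 42.1, 59.2 and 74.7 in CLCF1. CO library 6 held the highest CO value and lay inside the CLCF1 range, while the other CO libraries lay below it. The log2 fold change was 0.75 ± 0.28 and missed the threshold (adjusted p = 0.0718; 1.26 in libraries 1 and 2). Without CO library 6 it was 1.03 (adjusted p = 0.0116), without NC library 4 the adjusted p was 0.0438, and DESeq2 (0.0427) and limma-voom (0.0273) passed it.

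The peptide exchange factor DM did not pass in either direction. RT1-DMa was at 0.189, 0.985 and 2.29 CPM in CO and at 0.217, 0.784 and 1.40 in CLCF1 (log2 fold change -0.44 ± 0.69, adjusted p = 0.708; 0.59 in libraries 1 and 2). RT1-DMb was at 2.08, 3.74 and 6.80 CPM in CO and at 1.70, 4.25 and 8.52 in CLCF1 (0.27 ± 0.70, adjusted p = 0.833; 0.27 in libraries 1 and 2). The groups overlapped almost wholly for both chains, and with standard errors near 0.70 a change of several-fold in either direction would not have been resolved.

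Counted over the list, 4 of 8 members were higher in CLCF1 than in CO, with none lower, where 17.0% of all genes tested passed, 8.63% higher and 8.34% lower. Groups did not overlap for 3 members (RT1-Ba, RT1-Bb and RT1-DOb), against 3.46% of genes. The median log2 fold change was 1.40 over the members and 0.0018 over all genes tested. RT1-Ba and RT1-DOb entered the test through their CLCF1 counts, so a difference was built into their entry; among the other 6 members, 2 passed higher, the groups did not overlap for 1 (RT1-Bb) and the median was 1.03. The test in libraries 1 and 2 alone passed none of the members and 8 genes in the whole table, and in libraries 3 to 6 alone it passed RT1-DOb and no other member.

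**Figure D3:**
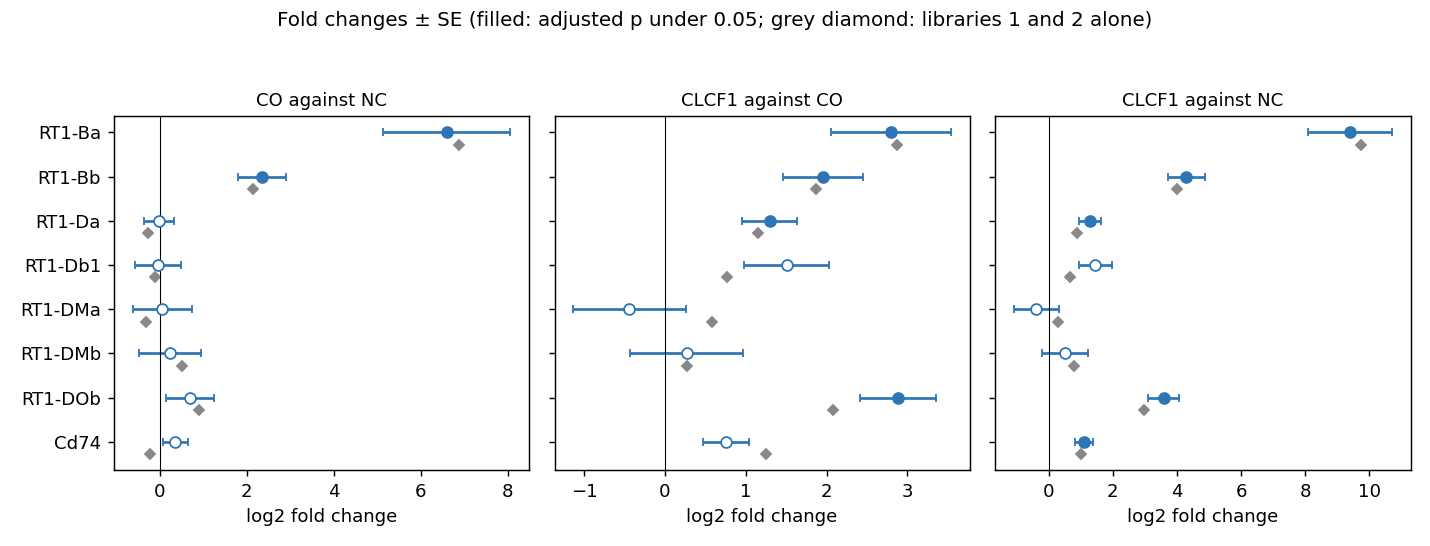
Log2 fold change of each gene (points, with bars of 1 SE) in the 3 comparisons, 1 panel each, with the value from libraries 1 and 2 alone beside it and filled points for calls at an adjusted p of 0.05. The fitted values of RT1-Ba against NC rest on a group at 0 and are no sizes.

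Set against NC, CLCF1 brain had more RNA of 5 members. RT1-Bb gave the largest measured ratio, 19.4-fold in mean CPM (log2 fold change 4.30 ± 0.57, adjusted p = 0.000375; 4.01 in libraries 1 and 2). RT1-DOb was 12.9-fold higher (3.59 ± 0.49, adjusted p = 0.000408; 2.99 in libraries 1 and 2), from 0, 0.112 and 0.281 CPM in NC. RT1-Ba was at least 176-fold higher (adjusted p = 0.00108), and at least 78.9-fold in libraries 1 and 2 alone. These 3 genes did not overlap between the groups. Here too, RT1-Ba and RT1-DOb entered the test only through their CLCF1 counts, so a difference was built into their entry.

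Cd74 was at 11.9, 31.1 and 35.7 CPM in NC, below every CLCF1 library, and was 2.17-fold higher in CLCF1 (log2 fold change 1.12 ± 0.28, adjusted p = 0.0195; 1.02 in libraries 1 and 2). RT1-Da was 2.45-fold higher without overlap (1.29 ± 0.34, adjusted p = 0.0239; 0.90 in libraries 1 and 2). Its call was lost without NC library 4 (adjusted p = 0.0502) or NC library 6 (0.0543). RT1-Db1 was at 0.450, 2.17 and 4.11 CPM in NC and overlapped with CLCF1 (1.46 ± 0.53, adjusted p = 0.0849; 0.66 in libraries 1 and 2), though DESeq2 (0.0323) and limma-voom (0.0436) passed it.

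RT1-DMb in NC was the most uneven value of the set. Its NC libraries ran from 0.185 to 12.2 CPM with a median of 0.733, and library 3 alone held 217 of 344 counts. The log2 fold change was 0.51 ± 0.71 (adjusted p = 0.700; 0.79 in libraries 1 and 2) and was 1.58 without NC library 3, still short of the threshold (adjusted p = 0.142). RT1-DMa gave -0.38 ± 0.69 (adjusted p = 0.786; 0.28 in libraries 1 and 2), from 0, 1.27 and 1.74 CPM in NC. Over the list, 5 of 8 members passed higher, against 4.43% of all genes tested (4.84% passed lower and 9.26% in either direction), and groups did not overlap for 5, against 2.73%. The median was 1.37 over the members and 0.011 over all genes; without RT1-Ba and RT1-DOb, 3 of 6 passed and the groups of 3 of 6 did not overlap. The 3 comparisons share libraries and are not independent of each other.

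Summed over the 8 genes, class II RNA was at 24.9 to 59.6 CPM in NC (mean 44.5 ± 13.6), 31.2 to 86.8 in CO (56.1 ± 19.6) and 102 to 128 in CLCF1 (114 ± 9.63). All CLCF1 libraries stood above all others. Per kb, Cd74 made up 73.7% (NC), 74.9% (CO) and 66.0% (CLCF1) of the summed means of the 8 genes. The ratio of mean sums was 1.26 for CO to NC, 2.03 for CLCF1 to CO and 2.56 for CLCF1 to NC. In libraries 1 and 2 alone these were 0.966, 2.40 and 2.32, so that the first changed its direction.

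The alpha and beta chains of a molecule did not keep a fixed ratio. Per kb, RT1-Ba to RT1-Bb was 0 in NC, where RT1-Bb had 64 counts. In CO the ratio ran from 0 to 6.94 with a median of 0.215, and in CLCF1 from 0.464 to 3.05 with a median of 1.15. CO library 4, which had the most RT1-Ba of its group (35 counts), had the least RT1-Bb (15 counts). RT1-Da exceeded RT1-Db1 in every library, by medians of 7.18 (NC), 6.54 (CO) and 6.18 (CLCF1) and a full range of 2.21 to 25.8. RT1-DMa to RT1-DMb had a median of 1.59 in NC (0 to 9.33), 0.348 in CO (0.0768 to 0.655) and 0.251 in CLCF1 (0.0669 to 0.536). The NC range of this ratio came from libraries with few counts of one chain: library 1 had no RT1-DMa and library 2 had 4 counts of RT1-DMb.

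**Figure D4:**
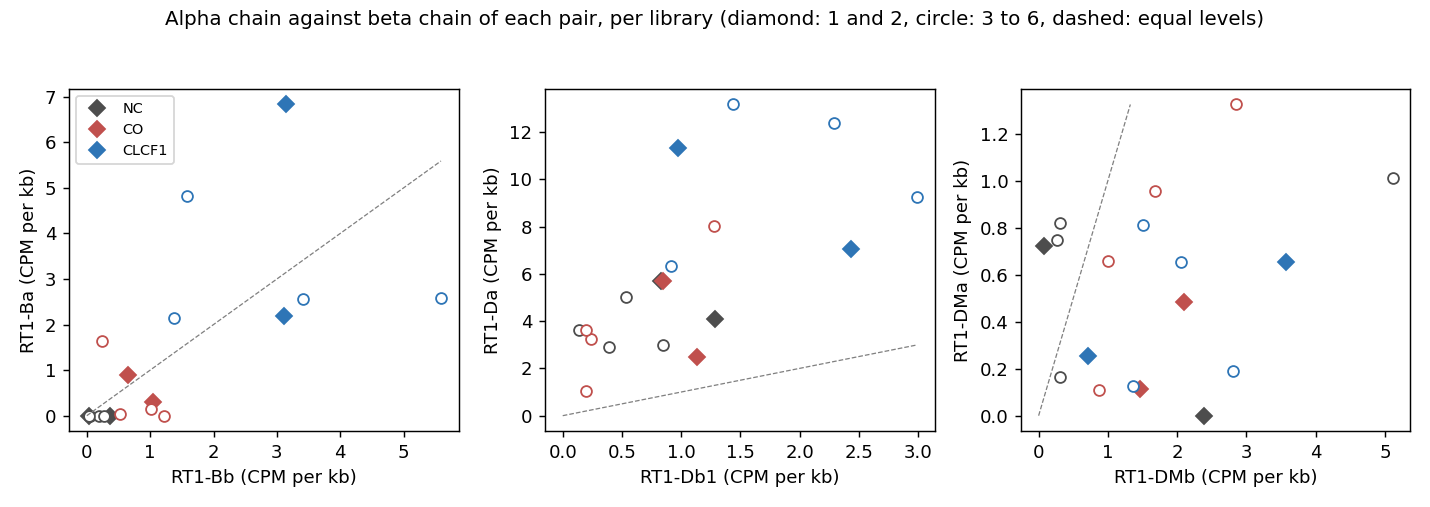
Alpha chain against beta chain, both in CPM per kb, for the 3 pairs, with 1 point a library and a dashed line at equal levels. RT1-Da lies above RT1-Db1 in all 18 libraries, while RT1-Ba and RT1-Bb are at or near 0 in NC and fall on both sides of the line in CLCF1.

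Within groups the members varied largely apart from each other. The median Pearson correlation of log2 CPM over the 28 pairs of members, after the group means were removed, was 0.07 over 18 libraries, and was -0.16 in libraries 1 and 2 (6 libraries) and 0.12 in libraries 3 to 6 (12 libraries). With group means kept, RT1-Bb (r = 0.65), RT1-Da (0.59), RT1-DOb (0.55), RT1-Ba (0.55) and RT1-DMb (0.42) followed Cd74 more closely than RT1-Db1 (0.19) and RT1-DMa (0.06) did over the 18 libraries. The order was another in libraries 1 and 2: RT1-Da 0.92, RT1-DOb 0.78, RT1-Bb 0.64, RT1-Ba 0.60, RT1-DMa 0.39, RT1-Db1 0.37 and RT1-DMb 0.22. Among 14110 genes outside the list, those most like Cd74 were Slirp (r = 0.84), an RNA-binding protein of mitochondria, Supt4h1 (0.83), a transcription elongation factor, Eps8l2 (0.82), Psmd12 (0.82), a proteasome subunit, and Smpdl3a (0.81), a phosphodiesterase. In libraries 1 and 2 their r was 0.78, 0.41, 0.41, 0.69 and 0.80. These correlations are descriptions over libraries that share their groups.

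The other class II rows had almost no counts. RT1-Ha and RT1-Db2 were at 0 in all libraries, which may be missing or poorly matching copies as well as silent genes. RT1-DOa, the alpha chain that pairs with RT1-DOb, was below the filter on low counts, with counts of 2, 1, 0, 0, 1 and 4 in the NC libraries, 0 in every CO library, and 0, 16, 12, 11, 6 and 11 in CLCF1. In a fit with no filter, RT1-DOa passed as higher in CLCF1 than in CO (adjusted p = 0.00288 over 22634 genes) and than in NC (log2 fold change 2.60 ± 0.80, adjusted p = 0.0352). It was at least 16.0-fold higher in CLCF1 than in CO, and at least 4.61-fold in libraries 1 and 2, where library 2 held all of its 16 counts.

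Ciita, the coactivator that class II promoters need, was also below the filter: 60 counts in NC, 22 in CO and 19 in CLCF1. Its levels were 0.536 ± 0.287, 0.231 ± 0.132 and 0.167 ± 0.135 CPM. With no filter the log2 fold change was -0.44 ± 0.69 in CLCF1 against CO (adjusted p = 0.706) and -1.64 ± 0.65 against NC (adjusted p = 0.0840). In CO against NC it was -1.20 ± 0.64 (adjusted p = 0.196), so Ciita passed in no comparison. At 0 to 21 counts a library the gene was close to the limit of detection. The part of Ciita in the class II values was not tested. Of 15 tested genes of class II transcription (the RFX and NF-Y subunits, Creb1 and the interferon gamma pathway), 0 passed in CLCF1 against CO, against 17.0% of all genes. Nfyb, an NF-Y subunit, passed in CO against NC (0.61 ± 0.11, adjusted p = 0.00193; 0.57 in libraries 1 and 2) and in CLCF1 against NC (0.49 ± 0.11, adjusted p = 0.00953; 0.33 in libraries 1 and 2), 1 of 15 in each. Of all genes, 12.7% and 9.26% passed in these comparisons. Of 8 tested genes that process antigen or the invariant chain, such as the cathepsins, 0 passed in any comparison.

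Costimulatory and adhesion genes, which act beside class II at the contact with T cells, followed other patterns. In CO against NC, 4 of 5 tested passed, 3 higher and 1 lower, against 12.7% of all genes. Cd80 rose (log2 fold change 3.30 ± 0.69, adjusted p = 0.00577) from 6 counts in NC to 60 in CO, Cd86 rose (1.97 ± 0.52, adjusted p = 0.0188), and the adhesion molecule Icam1 rose (1.23 ± 0.32, adjusted p = 0.0182). The activating receptor Cd40 fell (-1.33 ± 0.26, adjusted p = 0.00392). The log2 fold changes of libraries 1 and 2 were 2.18 for Cd80, 1.66 for Cd86, 0.72 for Icam1 and -1.04 for Cd40. In CLCF1 against CO, Cd40 rose (1.51 ± 0.26, adjusted p = 0.00133) and so did Cd274, the inhibitory ligand PD-L1 (1.02 ± 0.29, adjusted p = 0.0215), while Cd86 fell (-1.53 ± 0.51, adjusted p = 0.0452), so that 3 of 5 passed, against 17.0% of all genes. For these 3 genes libraries 1 and 2 gave 1.12, 0.74 and -1.22. In CLCF1 against NC, Cd80 alone passed (3.72 ± 0.68, adjusted p = 0.00276; 2.84 in libraries 1 and 2), from 6 counts in NC.

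Markers of the cells that could carry class II were measured beside the members. Of all genes tested, 12.7% passed in CO against NC, 17.0% in CLCF1 against CO and 9.26% in CLCF1 against NC. The counts of markers below stand beside these shares, and a single called marker is not read as a change of its cell type. The 12 microglia markers summed to 432 to 546 CPM in NC, 418 to 571 in CO and 527 to 653 in CLCF1, and 0 of 12 passed in CLCF1 against CO, with a median log2 fold change of 0.07. C1qa, a complement gene, was higher in CO than in NC (0.60 ± 0.16, adjusted p = 0.0175; 0.22 in libraries 1 and 2) and in CLCF1 than in NC (0.67 ± 0.16, adjusted p = 0.0124; 0.35). P2ry12, a purine receptor of resting microglia, was lower in CO than in NC (-0.90 ± 0.24, adjusted p = 0.0220; -0.82), and the other 10 did not pass in any comparison. The 7 markers of border macrophages found summed to 36.6 to 51.6, 21.9 to 52.3 and 29.6 to 69.7 CPM, and 1 of 7 passed in CLCF1 against CO, Pf4 (2.23 ± 0.59, adjusted p = 0.0147; 1.34 in libraries 1 and 2). Of the dendritic cell markers, 5 of 9 could be tested: Itgax, the integrin CD11c, was higher in CLCF1 than in CO (1.38 ± 0.31, adjusted p = 0.00536; 1.08 in libraries 1 and 2), and the receptor Flt3 was lower (-1.08 ± 0.29, adjusted p = 0.0173; -0.59 in libraries 1 and 2). The 9 markers summed to means of 21.0, 19.2 and 17.2 CPM in NC, CO and CLCF1, with a highest library of 24.6, 26.0 and 18.6. Cd209a was at 0 in all groups and Xcr1 at 0 in CO and CLCF1. B cell markers summed to at most 0.450, 1.10 and 0.217 CPM, with Blk at 0 in all libraries and Cd79a, Ms4a1 and Pax5 at 0 in CLCF1. T cell markers summed to 5.34 to 12.6, 4.79 to 9.01 and 8.57 to 12.3 CPM, and 1 of 3 tested passed in CLCF1 against CO, Cd8a (5.42 ± 0.57, adjusted p = 6.37e-05; 4.51 in libraries 1 and 2). Cd3e, a chain of the T cell receptor complex, gave -0.54 ± 0.64 (adjusted p = 0.606) and Cd4 gave 0.47 ± 0.23 (adjusted p = 0.175). In libraries 1 and 2 these were -0.89 and 0.52. The other T cell markers were below the filter on low counts and had their most counts in CLCF1. In NC, CO and CLCF1, Cd3d had 0, 1 and 29 counts, Cd3g had 11, 14 and 33, and Cd2 had 29, 25 and 58. Markers of monocytes and neutrophils summed to 18.7 to 51.5, 16.8 to 33.0 and 22.0 to 38.3 CPM, with 1 of 2 tested higher in CLCF1 than in CO, S100a9 (1.93 ± 0.60, adjusted p = 0.0327; 1.21 in libraries 1 and 2), and the monocyte receptor Ccr2 at 0 in all libraries. The same 5 genes passed in the same directions in CLCF1 against NC: Pf4 (2.12, and 1.22 in libraries 1 and 2), Itgax (1.42 and 1.42), Flt3 (-1.33 and -1.18), Cd8a (3.44 and 2.99) and S100a9 (2.65 and 2.26). Of these, Cd8a, Itgax and S100a9 entered the test only through their CLCF1 counts, so a difference was built into their entry. Cd8a, for example, was at most 0.463 CPM in NC and 0.179 in CO, and at least 1.90 in CLCF1. Of 3 tested endothelial markers, 1 passed higher in CO against NC and 1 lower in CLCF1 against CO, and Cldn5 of this list was at 0 in all libraries. Why a row of the table stood at 0 was not tested. The part of these cells in the class II values was not tested.

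Tissue at the brain's borders differed between the groups as well. The 5 choroid plexus markers found summed to 4.84 to 171 CPM in NC, 0.819 to 39.7 in CO and 57.6 to 5929 in CLCF1, and 5 of 5 were higher in CLCF1 than in CO, against 8.63% of all genes. CLCF1 library 1 had the highest choroid plexus sum (5929 CPM) and a class II sum of 128 CPM, and CLCF1 library 2 had the lowest (57.6 CPM) with a class II sum of 111 CPM. Meningeal fibroblast markers averaged 314, 129 and 237 CPM, with 4 of 6 lower in CO than in NC (6.40% of all genes) and 3 of 6 higher in CLCF1 than in CO. The part of these tissues in the class II values was not tested.

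**Figure D5:**
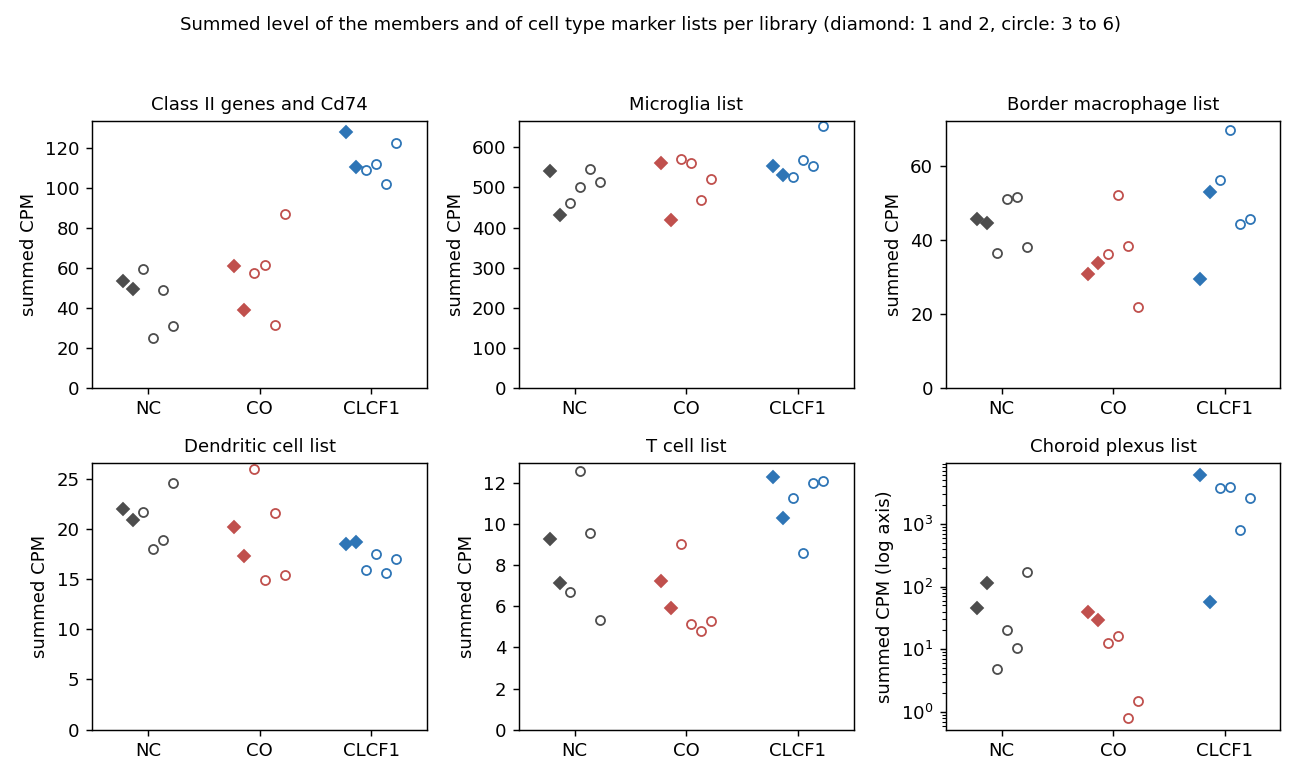
Summed CPM of the class II genes and of the marker lists in each library (y axis, linear except a log axis for choroid plexus; group on the x axis). The class II sums of CLCF1 (102 to 128 CPM) lie above all CO and NC libraries, microglia sums overlap, and choroid plexus sums span 57.6 to 5929 CPM within CLCF1.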

How the data were processed

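Raw counts per gene, whole numbers with no normalization, were deposited as 1 table of 18 rat brain libraries, made, per the labels' protocols, from total RNA with a SMARTER mRNA-Seq kit. The sample titles gave each library its group and number. Not given in the sources used here are the aligner, the counter, its strandedness and its treatment of shared reads. The submitters' processing notes name only mouse genome builds, while the table's identifiers are of rat, so its coordinates are printed with no build. Each library had 15.1 M to 20.3 M counts.

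The test was that of edgeR 4.0.16 (R 4.3.3): TMM scaling, filterByExpr (16581 of 34873 genes kept), all 18 libraries in 1 robust quasi-likelihood fit, and Benjamini-Hochberg adjustment over all genes tested, with a threshold of 0.05. All 8 members passed the filter. CPM used TMM-scaled library sizes, and each SE is the absolute log2 fold change over the square root of F. A fold against a group at 0 was bounded with 3 counts over that group. On data simulated for CLCF1 against CO, the fit recovered 56% of genes changed by 1 and 100% of genes changed by 2 on the log2 scale. Recovery at the counts and spread of the 8 members was not tested. Their SE in CLCF1 against CO ran from 0.28 (Cd74) to 0.74 (RT1-Ba). Alternatives were other scalings and filters, DESeq2 1.42.0, limma-voom (limma 3.58.1), a replicate block, only the compared groups, libraries 1 and 2 or 3 to 6 alone, each library left out, RT1-Db1 and RT1-Db2 summed, and a size threshold of 1 on the log2 scale.

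The members and lists were chosen with earlier results of these data known. Beside the members the text names Clcf1, Ciita, genes of the class II, transcription, processing and costimulation lists that passed, markers of each cell type list, RT1 rows at 0 in a group, and the 5 genes most correlated with Cd74. Cell markers, RT1 rows and other genes named outside that rule were chosen after their values were seen.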

Additional observations from a re-analysis of the deposited data

How the results depend on the processing

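Over the alternatives tried, the number of members called (2 for CO against NC, 4 for CLCF1 against CO, then 5 for CLCF1 against NC) stayed within 1.5 times except where libraries were dropped. With only the compared groups in the fit it was 1 in CO against NC, where RT1-Ba and RT1-DOb were not tested. In libraries 1 and 2 alone it was 0 in each comparison, with 4, 8 and 2 genes called in the whole table and 594, 817 and 418 genes at an unadjusted p under 0.05. In libraries 3 to 6 alone it was 0, 1 and 3. With each library left out in turn the counts were 2, 4 to 5 and 4 to 5.

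Values that changed sign belonged to members that did not pass. In CO against NC these were RT1-Da (0.13) and RT1-Db1 (0.0024) in libraries 3 to 6, RT1-DMa (-0.045 with the replicate block, -0.31 in libraries 1 and 2) and Cd74 (-0.23 in libraries 1 and 2). In CLCF1 against CO they were RT1-DMa (0.59 in libraries 1 and 2) and RT1-DMb (-0.0093 with the block). In CLCF1 against NC, RT1-DMa gave 0.11 with limma-voom and 0.28 in libraries 1 and 2. Leaving out a library gave ranges in CO against NC of -0.33 to 0.19 for RT1-Da, -0.36 to 0.26 for RT1-Db1, -0.32 to 0.29 for RT1-DMa and -0.011 to 1.32 for RT1-DMb. The cause was not tested.

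Same-numbered libraries paired weakly at most: the correlations of their deviations ran from -0.028 to 0.15, with 1 of 18 above 0.1. Yet 7 of 18 libraries correlated best with their own number, so a weak pairing cannot be set aside. With the replicate block, RT1-Db1 passed in CLCF1 against CO (adjusted p = 0.0116) and against NC (0.0258), Cd74 passed in CLCF1 against CO (0.0421), and RT1-Da missed in CLCF1 against NC (0.0521). Over all genes, the main counts of 2110, 2814 and 1536 calls became 4291, 5645 and 4292 with no filter, 4170, 5254 and 3844 with DESeq2, 918, 1436 and 736 in libraries 3 to 6, and 1088, 1468 and 913 with a log2 fold change of at least 1.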
